A study of Sus scrofa with 26 samples.

Results

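Triglyceride is built in the adipocyte on a glycerol backbone. GPD1 supplies glycerol 3-phosphate, GPAM and AGPAT2 add the first fatty acids, LPIN1 removes the phosphate, and DGAT1 and DGAT2 add the last fatty acid. The product is stored in a lipid droplet, whose assembly needs seipin (BSCL2), whose surface is coated by perilipins such as PLIN2 and PLIN4, and whose growth by fusion in white fat depends on CIDEC. In growing pigs the subcutaneous adipose tissue (SCAT) is the main depot of this stored fat. These 10 genes were followed in SCAT. All array probes that the array files name as 1 of them, by symbol, accession or description, were taken as members. In all, 29 probes of 9 genes were found among 60305 probes, and all 29 passed the filter on dim probes that left 44703 probes for testing. No probe was named for PLIN4, which is not analysed here.

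SCAT RNA of 26 castrated male pigs was hybridised on 1-colour porcine arrays, 1 array per pig. The pigs were Large White (LW), Creole, or their F1 cross, slaughtered at thermoneutrality (TN) or after heat stress (HS). There were 3 Creole TN, 5 Creole HS, 4 F1 TN, 5 F1 HS, 4 LW TN and 5 LW HS pigs. The sample labels give 24 °C for TN and 30 °C for HS, whereas the series description and the methods of the study give 32 °C for HS, over 4 or 5 days. All pigs entered the climatic room at 11 weeks of age, were castrated, were group-housed and were fed ad libitum. TN pigs were slaughtered before the temperature was raised, so that temperature, slaughter day and age cannot be told apart. The study also reports that the challenged pigs ate less under heat. Temperature and feed intake therefore cannot be told apart either. Littermates and pen mates were present, and the labels do not say which pigs shared a litter or a pen. The p-values therefore treat the pigs as independent, and the number of arrays limits the precision.

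Levels are log2 normalised intensities. They compare samples for 1 probe and do not compare genes. Differential expression was tested with limma, and a false discovery rate (FDR) adjusted p below 0.05 over all 44703 probes was the threshold. Each gene was represented by its tested probe of highest mean level. Adipocyte markers were compared between temperatures with 10 genes outside the members, all of which were tested. Their score is centred on these same arrays, so it compares groups and does not test the identity of the samples. The score, the mean of the markers' deviations from their averages over all arrays, ranged from -0.14 to 0.18 in TN and from -0.22 to 0.40 in HS. It differed between temperatures by -0.01 (permutation test, adjusted p = 0.901 over 11 marker lists). The markers lay on both sides of 0, from -0.23 for AQP7 to 0.17 for LEP. Only ADIPOQ passed, higher in HS by 0.16 (limma adjusted p = 0.0384). Scores of other cell types did move with temperature. The nerve sheath score (5 of 6 markers tested, 3 higher) ranged from -0.85 to 0.15 in TN and from -0.29 to 1.07 in HS. The fibroblast and matrix score (8 of 8 tested, 5 higher) ranged from -0.88 to 0.31 in TN and from -0.29 to 0.61 in HS. The red blood cell score (5 of 8 tested, 2 lower) ranged from -0.03 to 0.57 in TN and from -0.49 to 0.37 in HS. The mammary or sebaceous gland score (3 of 6 tested, 1 higher) ranged from -0.57 to 0.48 in TN and from -0.20 to 0.53 in HS. In bulk tissue, fewer cells of a type and less RNA per cell cannot be told apart.

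The probes are designed 60-base oligonucleotides, and a selection of those behind the results below is shown here. The brightest probes of GPD1 (O15018) and LPIN1 (A_72_P580437) are left out, and for GPD1 another probe that passed between breeds, A_72_P442634, is given. A probe with no open reading frame in the direction given is shown by its first 30 bases. PLIN2 and GPAM carry the temperature differences, AGPAT2 and GPD1 the differences between breeds, BSCL2 and LPIN1 the agreement and disagreement between probes of 1 gene (LPIN1 A_72_P542218 and A_72_P312828 varied together, and O3619 did not vary with them), and the DGAT2 pair shows an overlap, in capitals, of 27 bases.
PLIN2 A_72_P088596: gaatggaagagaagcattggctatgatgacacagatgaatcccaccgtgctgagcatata
PLIN2 O11670: agacatttccttaaaggaggaagcattgtg
GPAM O10889: gcaggggtcgtaattattaaccaactgtgg
AGPAT2 A_72_P154916: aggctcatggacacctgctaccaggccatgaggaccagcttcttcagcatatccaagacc
AGPAT2 O8998: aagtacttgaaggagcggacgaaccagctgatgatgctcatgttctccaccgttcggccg
GPD1 A_72_P442634: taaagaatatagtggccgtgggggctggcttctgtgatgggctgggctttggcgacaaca
BSCL2 A_72_P687235: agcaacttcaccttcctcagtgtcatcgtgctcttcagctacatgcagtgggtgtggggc
BSCL2 A_72_P178371: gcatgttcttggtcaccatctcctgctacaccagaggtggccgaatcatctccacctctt
BSCL2 O8830: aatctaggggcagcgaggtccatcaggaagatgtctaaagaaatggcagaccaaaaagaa
LPIN1 A_72_P542218: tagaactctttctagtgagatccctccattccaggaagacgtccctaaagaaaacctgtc
LPIN1 A_72_P312828: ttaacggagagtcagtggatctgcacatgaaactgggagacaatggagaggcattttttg
LPIN1 O3619: tgtttcattgaaaagaagccagagaacaga
DGAT2 O8336: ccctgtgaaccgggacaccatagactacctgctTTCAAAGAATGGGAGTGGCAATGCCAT
DGAT2 A_72_P288804: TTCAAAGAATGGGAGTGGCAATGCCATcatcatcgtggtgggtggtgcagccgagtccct

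Heat stress was compared with thermoneutrality over all pigs, adjusted for breed. Of the 9 measured genes, PLIN2 and GPAM were lower in HS and none was higher. Over all probes tested, 12.2% passed the threshold in this comparison, 7.02% as lower in HS and 5.17% as higher. With 1 probe per named gene, 12.6% of 9967 genes passed. The estimate lay below 0 in 8 of the 9 genes, with a median of -0.08 on the log2 scale, beside a median of -0.005 over the 9967 genes.

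PLIN2, the perilipin that coats droplets in most cell types and is degraded when it is not bound to lipid, had the largest difference of the 9 genes. In Creole pigs its log2 level was 11.77, 10.41 and 10.99 in TN, and 10.03, 10.36, 10.49, 10.69 and 10.66 in HS. In F1 pigs it was 11.62, 11.79, 10.77 and 11.61 in TN, and 10.27, 10.32, 10.83, 10.23 and 9.60 in HS. In LW pigs it was 10.89, 11.48, 11.38 and 10.46 in TN, and 10.81, 9.96, 10.31, 9.83 and 10.84 in HS. All 15 HS pigs lay below the TN mean of their own breed, and 8 of the 11 TN pigs lay above every HS pig. The 3 TN pigs within the HS range came 1 from each breed. TN pigs averaged 11.20 ± 0.51 (SD, n = 11), and HS pigs averaged 10.35 ± 0.38 (n = 15). The difference adjusted for breed was -0.85 (SE 0.17, 95% interval -1.20 to -0.50, limma adjusted p = 0.00224), a level 1.80-fold lower in HS.

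The other PLIN2 probe, O11670, shares no stretch longer than 9 bases with the brighter one and gave the same call. Its level in TN ran from 6.28 to 6.83, with a median of 6.48. In HS it ran from 5.74 to 6.35, with a median of 6.08. Here 14 of the 15 HS pigs lay below every TN pig. The remaining HS pig, an LW pig at 6.35, lay within the TN range. The difference was -0.49 (SE 0.08, limma adjusted p = 0.000297). Once group means were removed, both probes varied together over the 26 arrays, with Pearson's r = 0.86 and Spearman's rho = 0.87. The permutation p of r was 1e-05, the smallest that 100000 permutations can give, or 3.06e-05 after adjustment over 52 pairs of probes. Without the 2 arrays farthest from the median, r was 0.83.

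GPAM, the mitochondrial acyltransferase that opens the pathway, was also lower in HS, and 1 probe measured it. The mean level of that probe was low, 6.85, and it was well above background on all 26 arrays. In Creole pigs its level was 6.63, 7.26 and 7.18 in TN, and 7.10, 6.55, 6.99, 6.98 and 6.82 in HS. In F1 pigs it was 7.37, 6.74, 7.16 and 7.31 in TN, and 6.53, 6.74, 6.79, 6.90 and 7.21 in HS. In LW pigs it was 6.90, 7.28, 7.19 and 6.66 in TN, and 6.31, 6.17, 6.54, 6.35 and 6.46 in HS. The temperatures did not overlap in LW pigs and overlapped in the Creole and F1 pigs. In all, 13 of 15 HS pigs lay below the TN mean of their breed, and 7 of them lay below every TN pig. TN pigs averaged 7.06 ± 0.28 (SD, n = 11), and HS pigs averaged 6.70 ± 0.31 (n = 15). The difference was -0.38 (SE 0.10, 95% interval -0.58 to -0.17, limma adjusted p = 0.0147), or 1.30-fold lower in HS.

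**Figure D1:**
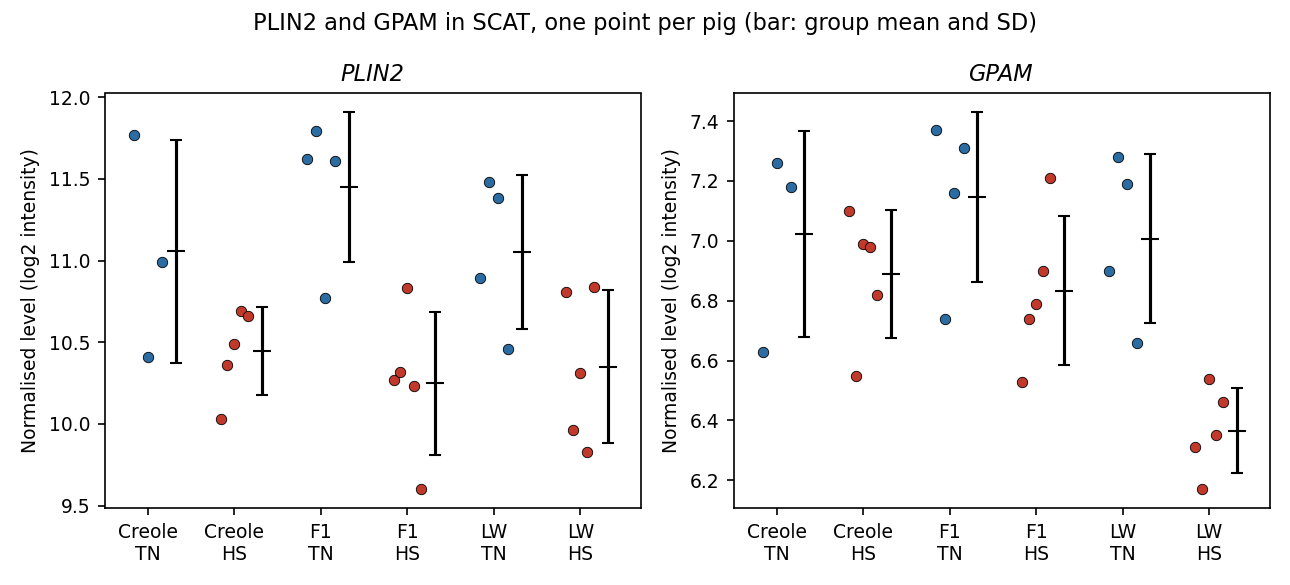
Normalised log2 intensity (vertical axis) of PLIN2 and GPAM in SCAT for each of the 6 groups of breed and temperature (horizontal axis). Each point is 1 pig, blue for TN and red for HS, and each bar is the group mean with its SD. The PLIN2 points of HS pigs end at 10.84, below 8 of the 11 TN pigs, and the GPAM points of LW HS pigs, 6.17 to 6.54, lie below all TN pigs.

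The arrays were run on 5 slides, each with pigs of both temperatures. Within slides, the mean PLIN2 level was lower in HS on 5 of 5 slides, by -1.40 to -0.34. GPAM was lower on 5 of 5 slides, by -0.58 to -0.13. These slide means were not adjusted for breed and rest on few pigs. Slide 1 held 1 TN pig. On slide 5 the TN pigs were LW and the HS pigs were Creole and F1, so breed and temperature cannot be told apart there. The PLIN2 call was kept without each array in turn, with adjusted p from 0.00116 to 0.00563, and so was the GPAM call, from 0.00388 to 0.0334. Both calls also passed with slide as a fixed block. The calls were less stable when a marker score was added to the model. With the red blood cell score, PLIN2 remained past the threshold and GPAM was at -0.22 (adjusted p = 0.372). With the fibroblast and matrix score, GPAM was at -0.27 (adjusted p = 0.198). With the nerve sheath score, PLIN2 was at -0.72 (adjusted p = 0.178) and GPAM at -0.49 (adjusted p = 0.119), and in that model 57 probes in all passed against 5447 without the score.

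The other 7 genes did not pass the threshold. GPD1, the enzyme that makes glycerol 3-phosphate, was at 16.16 ± 0.12 in TN and 16.09 ± 0.22 in HS (SD, n = 11 and 15), with a difference of -0.08 (95% interval -0.20 to 0.04, limma adjusted p = 0.414). AGPAT2, the acyltransferase of the second step, was at 9.78 ± 0.33 in TN and 9.87 ± 0.37 in HS, with a difference of 0.07 (95% interval -0.15 to 0.28, limma adjusted p = 0.733). LPIN1, the phosphatidate phosphatase lipin 1, was at 13.30 ± 0.55 in TN and 13.08 ± 0.38 in HS, with a difference of -0.23 (95% interval -0.57 to 0.11, limma adjusted p = 0.391). That interval includes differences as large as the one of GPAM.

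The 2 enzymes of the last step gave differences close to 0. DGAT1 was at 11.97 ± 0.20 in TN and 11.87 ± 0.32 in HS (SD, n = 11 and 15). Its difference was -0.10 (95% interval -0.28 to 0.07, limma adjusted p = 0.447). DGAT2, which is not related to DGAT1 by sequence, was at 17.75 ± 0.16 in TN and 17.70 ± 0.25 in HS, with a difference of -0.05 (95% interval -0.22 to 0.12, limma adjusted p = 0.744). Its brightest probe was named only through a description that points to a partial match with the mouse gene. The other 3 DGAT2 probes gave -0.05 to -0.10, and the 6 pairs of DGAT2 probes correlated at r = 0.90 to 0.99.

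Among the droplet proteins, CIDEC and BSCL2 stood apart from PLIN2. CIDEC, which joins droplets into the single large droplet of white adipocytes, was at 16.89 ± 0.18 in TN and 16.82 ± 0.22 in HS (SD, n = 11 and 15), a difference of -0.08 (95% interval -0.23 to 0.08, limma adjusted p = 0.562). Its other 2 probes gave -0.13 and -0.16, and neither passed. BSCL2 was at 8.67 ± 0.25 in TN and 8.59 ± 0.24 in HS, a difference of -0.08 (95% interval -0.24 to 0.09, limma adjusted p = 0.579). The lower ends of these intervals, -0.23 for CIDEC and -0.24 for BSCL2, lie above the upper end of the PLIN2 interval, -0.50.

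**Figure D2:**
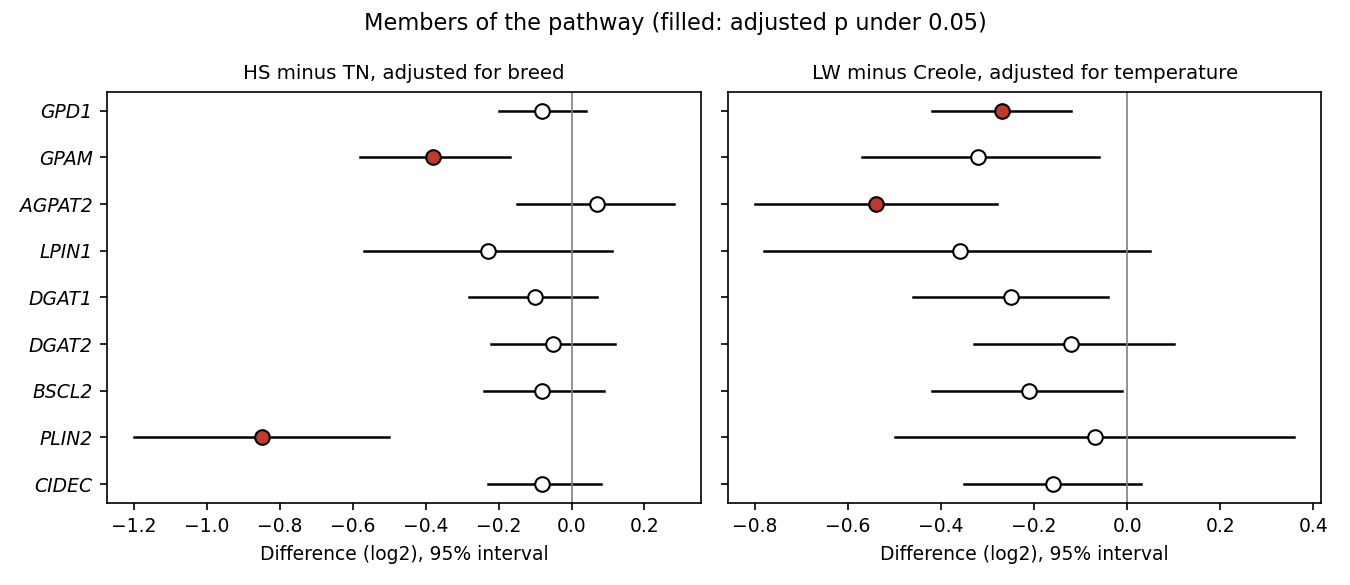
Difference in log2 level (horizontal axis) for the 9 measured genes, with the 95% interval as a line, for HS minus TN and for LW minus Creole. Filled points had an FDR adjusted p under 0.05. PLIN2 at -0.85 and GPAM at -0.38 are filled for temperature, and AGPAT2 at -0.54 and GPD1 at -0.27 for breed.

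Probes of the same gene were then compared, since a call can rest on 1 probe. The 5 GPD1 probes ranged from -0.08 to -0.10 for HS minus TN. Of these, A_72_P667123 and O15018 have the same 60 bases, and A_72_P662126 shares 55 bases with both, so that the 5 probes are not 5 independent measurements. The 8 LPIN1 probes did not agree in sign. They ranged from -0.42 to 0.16, with 4 below 0, and none passed. LPIN1 probes A_72_P542218 and A_72_P075451 have the same 60 bases and gave 0.16 each. A_72_P312828 tracked A_72_P542218 at r = 0.95 over the 26 arrays, while the bright probe that stands for the gene tracked it at r = 0.61 and the dim O3619 at r = -0.04 (permutation test, adjusted p = 3.06e-05, 0.00745 and 0.948 over 52 pairs; the corresponding rho values were 0.94, 0.66 and -0.15).

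BSCL2 showed the clearest disagreement. A_72_P687235 and A_72_P178371 correlated at r = 0.89 (rho = 0.86, permutation test, adjusted p = 3.06e-05) and gave -0.08 and -0.14 for HS minus TN. O8830 correlated with them at r = -0.01 and r = -0.04 (permutation test, adjusted p = 0.976 and 0.948) and gave 0.22 (SE 0.07, limma adjusted p = 0.0518). Its level ran from 7.61 to 8.12 in TN, with a median of 7.92, and from 7.63 to 8.59 in HS, with a median of 8.07. In HS 7 of 15 pigs lay above every TN pig on O8830, whereas no HS pig did so on the other 2 BSCL2 probes. O8830 also shares at least 20 bases with a probe that the array files pair with no gene. AGPAT2 had a dim partner probe too. O8998 was well above background on 8 of 26 arrays, ran from 5.34 to 7.75, with 7.75 in 1 F1 HS pig, and correlated with the brighter AGPAT2 probe at r = -0.06 (rho = 0.27, permutation test, adjusted p = 0.93).

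**Figure D3:**
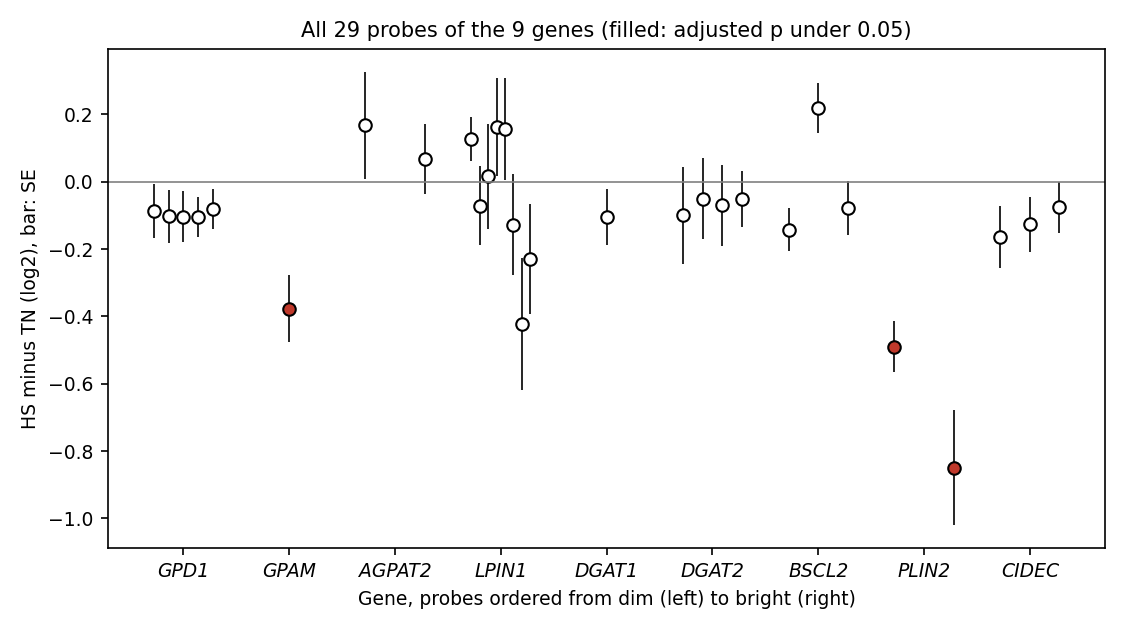
HS minus TN in log2 units (vertical axis), with the SE as a bar, for all 29 probes, grouped by gene (horizontal axis) and ordered from dim to bright within a gene. Filled points had an FDR adjusted p under 0.05. Both PLIN2 probes and the GPAM probe are filled, and the probes of LPIN1 and BSCL2 lie on both sides of 0.

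The change with temperature was also estimated within each breed, with the spread shared by all 6 groups. In LW pigs, GPAM fell by 0.64 on the log2 scale (SE 0.16, 95% interval -0.97 to -0.31, limma adjusted p = 0.0427), and it was the only 1 of the 9 genes past the threshold, beside 1.5% of all probes in either direction and 1.09% as lower. This call was close to the threshold. It was lost without any 1 of 8 arrays (LW HS replicates 1, 2, 3 and 4, LW TN replicates 1, 2 and 3, and Creole HS replicate 4), with GPAM then at -0.68 to -0.55 and adjusted p from 0.0509 to 0.148. It was also lost with slide as a fixed block, where GPAM was at -0.45 (adjusted p = 0.174). With the red blood cell score GPAM was at -0.47 (adjusted p = 0.438), with the fibroblast and matrix score at -0.53 (0.134) and with the nerve sheath score at -0.98 (0.0901). The call was lost in 7 of 14 alternative settings. PLIN2 differed by -0.61 in Creole (95% interval -1.26 to 0.03, adjusted p = 0.475), by -1.20 in F1 (95% interval -1.79 to -0.61, adjusted p = 0.0593) and by -0.70 in LW pigs (95% interval -1.29 to -0.11, adjusted p = 0.212). On the dimmer PLIN2 probe the F1 difference was -0.67 (adjusted p = 0.0261). By limma no gene of the 9 passed in Creole pigs, where 0.0716% of probes passed. There 0 of the 9 had an unadjusted p under 0.05, beside 11.1% of all probes. In F1 pigs 0 of the 9 passed as well, beside 0.421% of probes, and PLIN2 alone had an unadjusted p under 0.05, beside 16% of probes. In the test of the interaction, 0.00224% of probes passed and no gene of the 9 did, with adjusted p of 0.897 for GPAM, 0.903 for PLIN2 and 0.897 for GPD1. By the same test 0 of the 9 had an unadjusted p under 0.05, beside 5.23% of all probes. The responses of the breeds were therefore not shown to differ.

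For both PLIN2 and GPAM the 3 TN groups, in the order F1, Creole and LW, had higher means than the 3 HS groups, and only the order of the HS groups differed. For PLIN2 the TN groups, with means of 11.45 in F1, 11.06 in Creole and 11.05 in LW pigs, came before the 3 HS groups at 10.45 in Creole, 10.35 in LW and 10.25 in F1 pigs. The step of 0.60 between LW TN and Creole HS exceeded the pooled SD of 0.46, and no other step between neighbours did. For GPAM the means ran from 7.14 in F1 TN to 6.83 in F1 HS pigs, with no step over the pooled SD of 0.25, and then dropped by 0.46 to 6.37 in LW HS pigs.

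LW and Creole pigs were compared next, adjusted for temperature. AGPAT2 and GPD1 were lower in LW pigs, and no member was higher. These are 2 of the 9 genes, beside 14.3% of all probes in either direction, 7.43% as lower and 6.89% as higher. With the brightest probe of each gene, the estimates of all 9 lay below 0, with a median of -0.25, beside -0.009 over 9967 genes. For LPIN1 the sign rests on that choice: its brightest probe gave -0.36, 2 of its 8 probes lay below 0, the range was -0.36 to 0.41, and the mean of its probes gave 0.09 (adjusted p = 0.743).

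AGPAT2 had the largest difference between these breeds. In Creole pigs its level was 9.68, 9.91 and 10 in TN, and 10.25, 10.09, 10.61, 9.84 and 10.17 in HS. In F1 pigs it was 10.14, 9.63, 10.41 and 9.62 in TN, and 10.05, 9.74, 9.65, 9.89 and 10.30 in HS. In LW pigs it was 9.56, 9.91, 9.18 and 9.59 in TN, and 9.71, 9.47, 9.28, 9.52 and 9.49 in HS. Of the 9 LW pigs, 7 lay below every Creole pig, and the F1 pigs, from 9.62 to 10.41, overlapped both. The difference between LW and Creole was -0.54 (SE 0.13, 95% interval -0.80 to -0.28, limma adjusted p = 0.00673), or 1.45-fold lower in LW pigs. The dim AGPAT2 probe gave -0.16 (adjusted p = 0.627).

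GPD1 varied little in Creole pigs. Its level there was 16.15, 16.28 and 16.13 in TN, and 16.23, 16.30, 16.32, 16.28 and 16.24 in HS. In F1 pigs it was 16.40, 16.11, 16.22 and 16.12 in TN, and 15.94, 16.23, 15.94, 16.18 and 16.36 in HS. In LW pigs it was 15.94, 16.28, 16.12 and 16.06 in TN, and 16.05, 15.82, 15.62, 15.80 and 16.09 in HS. All LW pigs but 1 lay below every Creole pig, and the lowest values were those of LW HS pigs. The difference between LW and Creole was -0.27 (SE 0.07, 95% interval -0.42 to -0.12, limma adjusted p = 0.0156), or 1.21-fold lower in LW pigs. The other GPD1 probes gave -0.23 to -0.35, and 4 of the 5 passed. The probe that did not pass, A_72_P667123 at -0.23 (adjusted p = 0.0958), has the same 60 bases as O15018, on which the GPD1 call rests.

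Both calls were kept without each array in turn, with adjusted p from 0.00339 to 0.0159 for AGPAT2 and from 0.00716 to 0.0337 for GPD1. Both also passed with slide as a fixed block. Marker scores moved with these breeds too. The adipocyte score ran from -0.05 to 0.40 in Creole and from -0.22 to -0.01 in LW pigs, a difference of -0.23 adjusted for temperature, with 2 of 10 markers lower in LW pigs. The fibroblast and matrix score ran from -0.88 to 0.29 in Creole and from -0.09 to 0.61 in LW pigs, a difference of 0.40, with 4 of 8 markers higher. The other scores differed by -0.84 (skeletal muscle) to 0.91 (keratinocyte), and no marker of these 2 lists passed. In the endothelial (0.22), nerve sheath (0.26), mammary or sebaceous gland (0.20) and B cell (0.05) lists 1 marker each was higher. The score differences between breeds were not tested. The part of the adipocyte score in these results was not tested. With the fibroblast and matrix score in the model, neither gene passed, with AGPAT2 at -0.38 (adjusted p = 0.219) and GPD1 at -0.13 (adjusted p = 0.484). GPAM differed by -0.32 between LW and Creole (95% interval -0.57 to -0.06, limma adjusted p = 0.0834), and passed without Creole TN replicate 1 (adjusted p = 0.0226) or LW TN replicate 2 (adjusted p = 0.0399). GPAM also passed with slide as a fixed block, at -0.31 (adjusted p = 0.0356), and with the red blood cell score, at -0.34 (adjusted p = 0.0435). PLIN2, which had the largest difference with temperature, gave -0.07 between these breeds (95% interval -0.50 to 0.36, limma adjusted p = 0.857). On BSCL2 the probes again took opposite signs. A_72_P178371 was lower in LW pigs by -0.25 (adjusted p = 0.0293) and O8830 higher by 0.30 (adjusted p = 0.0284).

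The breeds were also compared at each temperature, a contrast added after the data were seen. Under HS, LW pigs were lower than Creole pigs in AGPAT2 by -0.70 (SE 0.16, limma adjusted p = 0.0167), in GPD1 by -0.40 (SE 0.09, adjusted p = 0.0151) and in GPAM by -0.52 (SE 0.15, adjusted p = 0.0429). These are 3 of the 9 genes, beside 5.66% of all probes in either direction and 3.28% as lower. In TN the same differences were -0.30, -0.08 and -0.02, and by limma 0 of the 9 genes passed, beside 0.313% of all probes. At an unadjusted p under 0.05 the count was 0 as well, beside 15.2% of all probes. The difference between these 2 contrasts belongs to the interaction, which did not pass for any of the 9.

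All 3 breeds were then compared at once. Any difference among the 3 breeds passed for AGPAT2 (adjusted p = 0.0136), DGAT1 (0.0176) and GPD1 (0.0357), which are 3 of the 9 genes beside 11.3% of all probes. With slide as a fixed block 1 of the 9 passed, and with the fibroblast and matrix score 0 passed. The share of all probes in those fits was not counted. DGAT1 reached its highest mean in the F1 pigs, at 12.11 ± 0.26 (SD, n = 9), beside 11.93 ± 0.18 (n = 8) in Creole and 11.69 ± 0.19 (n = 9) in LW pigs. LW pigs were lower than F1 pigs in DGAT1 by -0.42 (SE 0.10, limma adjusted p = 0.021) and in BSCL2 by -0.33 (SE 0.09, adjusted p = 0.0489), while BSCL2 probe O8830 gave 0.26 (adjusted p = 0.0913) and AGPAT2 at -0.41 just missed the threshold (adjusted p = 0.0536). Over all probes 4.22% passed in that comparison, 2.46% as lower. Against the mean of both parent breeds, DGAT1 was at 0.30 in F1 pigs (SE 0.09, adjusted p = 0.239) and BSCL2 at 0.22 (SE 0.08, adjusted p = 0.44). By limma 0 of the 9 genes passed there, beside 0.00671% of all probes, and 2 had an unadjusted p under 0.05, beside 8.69%. Between F1 and Creole pigs 0 of the 9 passed, beside 0.262% of probes, and 0 had an unadjusted p under 0.05, beside 9.75%.

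**Figure D4:**
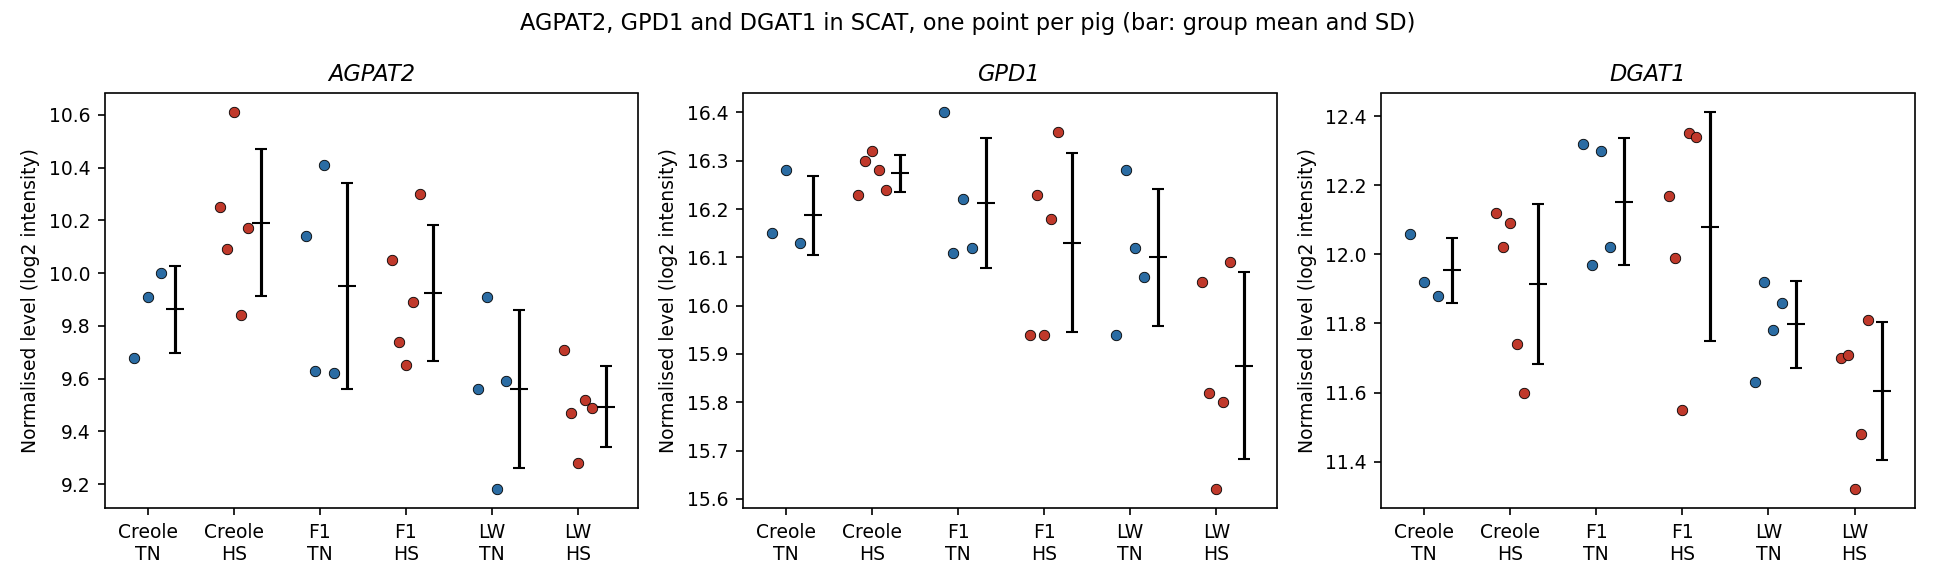
Normalised log2 intensity (vertical axis) of AGPAT2, GPD1 and DGAT1 in SCAT for each of the 6 groups (horizontal axis). Each point is 1 pig, blue for TN and red for HS, and each bar is the group mean with its SD. LW pigs had the lowest breed mean in each of the 3 genes, and for DGAT1 the F1 pigs had the highest, 12.11.

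Variation of the 9 genes, each read on its brightest probe, was compared among pigs of the same group in 36 pairs, after group means were removed. The median r was 0.16 over 26 arrays, and 5 pairs passed the adjusted threshold by Pearson's r. How often pairs of other genes pass was not tested. DGAT1 went with GPD1 at r = 0.63 (rho = 0.64), with DGAT2 at r = 0.60 (rho = 0.62) and with AGPAT2 at r = 0.59 (rho = 0.57). LPIN1 went with PLIN2 at r = 0.61 (rho = 0.66), and DGAT2 ran opposite to PLIN2 at r = -0.53 (rho = -0.54). The LPIN1 value holds for probe A_72_P580437, which itself tracked LPIN1 probe A_72_P542218 at r = 0.61 and O3619 at r = 0.03. Permutation p-values within groups were 0.0033 for DGAT1 with GPD1, 0.00377 with DGAT2 and 0.00489 with AGPAT2, and 0.00625 and 0.00519 for the pairs with PLIN2, and all 5 gave an adjusted p of 0.045. By rho, 3 pairs passed (DGAT1 with GPD1, DGAT1 with DGAT2, and LPIN1 with PLIN2, adjusted p = 0.0454 each). Without the 2 arrays farthest from the median, r was 0.61, 0.43, 0.56, 0.56 and -0.50 in the order given. PLIN2 and GPAM, the genes that were lower in HS, gave r = -0.16 (rho = -0.14, permutation p = 0.532, adjusted p = 0.685). The slides held 4 to 7 arrays, too few for these relations within a slide.

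The named genes outside the list whose deviations were most like the mean deviation of the 9 genes were ADIPOR1 (r = 0.87), NAA50, CDS2, MRPL45 and DNAJA2 (r = 0.81 each), over 26 arrays and 9958 candidates. These are descriptions of likeness with no test. Of these, ADIPOR1 was lower in HS by -0.32 (adjusted p = 0.000345) and DNAJA2 by -0.27 (adjusted p = 0.00419).

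Of 20 other enzymes listed for glycerolipid synthesis, 17 were tested, and 5 were lower and 1 higher in HS, with a median of -0.13. Over the 9967 named genes 12.6% passed, 764 as lower and 487 as higher. GPAT4, an acyltransferase of the same step as GPAM in the endoplasmic reticulum, was lower by -0.40 (SE 0.12, limma adjusted p = 0.0315). AGPAT1 and AGPAT3, relatives of AGPAT2, were lower by -0.34 (adjusted p = 0.0241) and -0.26 (adjusted p = 0.0023), whereas AGPAT4 was higher by 0.33 (adjusted p = 0.00136). LPCAT3 and LPGAT1, which acylate lysophospholipids, were lower by -0.47 (adjusted p = 0.00172) and -0.35 (adjusted p = 0.0193). The GPAT4 call was lost without any 1 of 6 arrays (Creole TN replicates 1 and 2, LW HS replicate 3, F1 HS replicate 3, and LW TN replicates 3 and 4), with adjusted p from 0.0501 to 0.0614. With the mean of all probes of a gene, LPGAT1 was at -0.11 (adjusted p = 0.285) and AGPAT4 at 0.15 (adjusted p = 0.0563). With the red blood cell score in the model, GPAT4 was at -0.19 (adjusted p = 0.539) and AGPAT1 at -0.18 (adjusted p = 0.472), while LPCAT3 at -0.39 (adjusted p = 0.0935) and LPGAT1 at -0.45 (adjusted p = 0.0625) missed the threshold at larger differences. With the fibroblast and matrix score, GPAT4 was at -0.21 (adjusted p = 0.395), AGPAT1 at -0.20 (adjusted p = 0.322) and LPGAT1 at -0.29 (adjusted p = 0.163). With the nerve sheath score none of the 6 passed (adjusted p from 0.111 to 0.339), although the differences of 5 of them stayed near their size without it, at -0.37 for GPAT4, -0.32 for AGPAT1, -0.25 for AGPAT3, 0.33 for AGPAT4 and -0.39 for LPGAT1, and LPCAT3 was at -0.32. Without a breed term, GPAT4 at -0.40 (adjusted p = 0.0936) and AGPAT1 at -0.33 (adjusted p = 0.0657) missed the threshold with nearly the same differences.

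Of 20 other lipid droplet proteins, 15 were tested, and 1 was lower and 1 higher, with a median of -0.08, beside the same 12.6% of all named genes. CIDEA, a relative of CIDEC, was lower in HS by -0.43 (SE 0.06, limma adjusted p = 0.000234). PLIN3, a perilipin of small droplets, was higher by 0.195 (SE 0.06, limma adjusted p = 0.0445), a call that was lost without any 1 of 17 arrays (F1 HS replicates 1 to 3, F1 TN 3 and 4, Creole HS 1, 2 and 5, Creole TN 2 and 3, LW HS 1, 2, 3 and 5, and LW TN 2 to 4), with adjusted p up to 0.086. With the red blood cell score PLIN3 was at 0.12 (adjusted p = 0.459), and with the fibroblast and matrix score at 0.15 (adjusted p = 0.298). It stayed near its size and missed the threshold with the nerve sheath score (0.18, adjusted p = 0.396), with the skeletal muscle score (0.19, adjusted p = 0.0504), without a breed term (0.19, adjusted p = 0.074) and without the filter on dim probes (0.195, adjusted p = 0.0595). With the nerve sheath score CIDEA had the same difference, -0.43, at an adjusted p of 0.0561. PLIN1, the perilipin of the mature adipocyte, gave -0.06 (adjusted p = 0.351), and the lipases PNPLA2 and LIPE gave -0.14 (adjusted p = 0.22) and -0.17 (adjusted p = 0.204). Of 7 transcription factors of fat storage, all were tested, and by limma none passed, beside the same 12.6% of all named genes. PPARG gave 0.12 (adjusted p = 0.341) and SREBF1 -0.28 (adjusted p = 0.256).

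Between LW and Creole pigs, 1 of the 17 synthesis enzymes, 3 of the 15 droplet proteins and 1 of the 7 transcription factors passed, beside 15.3% of the 9967 named genes. AGPAT4 was higher in LW pigs by 0.30 (limma adjusted p = 0.0123). Among the droplet proteins, HILPDA and ABHD5, an inhibitor and an activator of the lipase PNPLA2, were higher by 0.57 (adjusted p = 0.0435) and 0.74 (adjusted p = 0.0227). CIDEA was lower by -0.31 (adjusted p = 0.0103). The glucose-responsive transcription factor MLXIPL was lower by -0.49 (adjusted p = 0.0354).

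**Figure D5:**
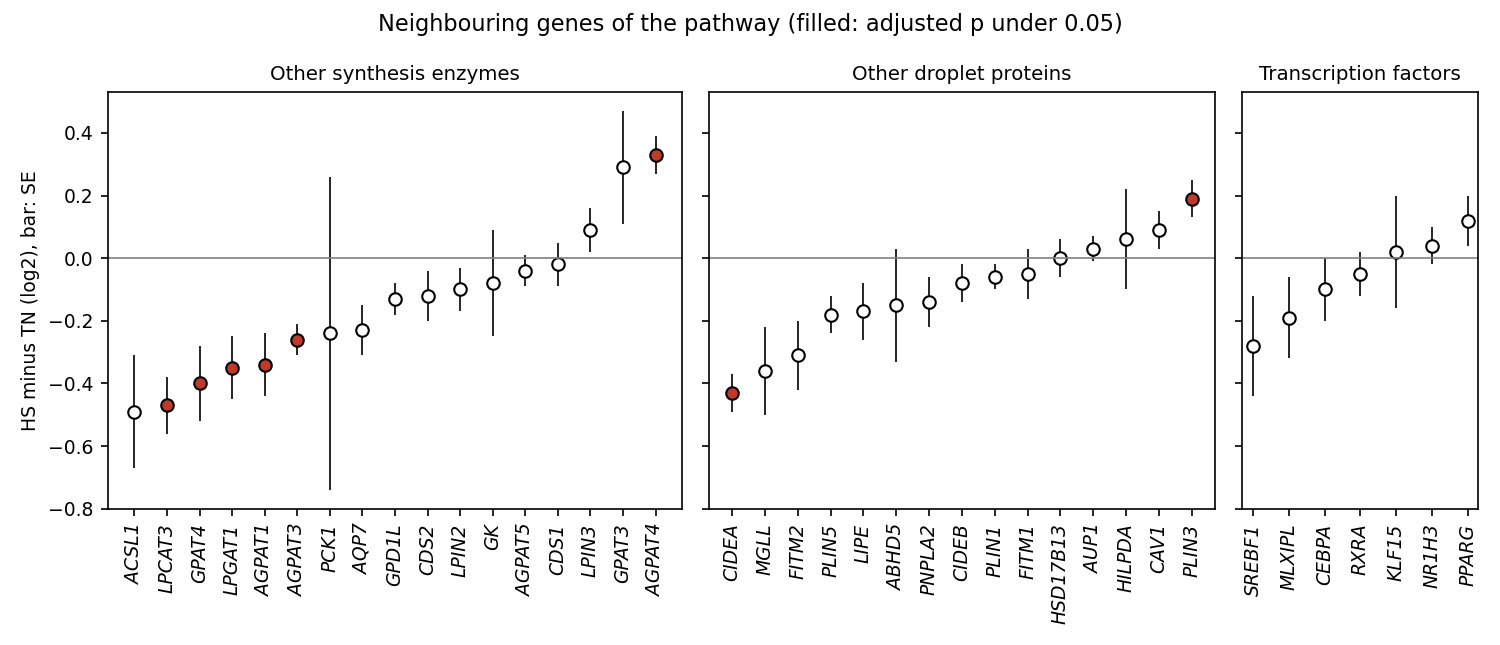
HS minus TN in log2 units (vertical axis), with the SE as a bar, for the tested genes of 3 related lists: 17 other synthesis enzymes, 15 other droplet proteins and 7 transcription factors, ordered by value within a list (horizontal axis). Filled points had an FDR adjusted p under 0.05. LPCAT3, GPAT4, LPGAT1, AGPAT1, AGPAT3 and CIDEA are filled below 0, and AGPAT4 and PLIN3 above 0.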

How the data were processed

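The scanner files hold linear spot intensity extracted with Agilent Feature Extraction (version 10.10.1.1) per the labels, deposited before normalisation. The authors also deposited a table of log2 values, quantile-normalised, which was used as an alternative. No genome build is named in these files. From the intensity, the median pixel signal of non-control spots was quantile-normalised and log2-transformed, and a probe was tested when 8 or more arrays read it well above background (44703 of 60305 probes). Between 68.51% and 76.58% of spots per array were well above background. Breed and temperature, or the 6 group means, were fitted with limma (version 3.58.1, eBayes with intensity trend), with Benjamini-Hochberg adjustment over all tested probes. Pen, slaughter day and parents, random effects of the study's model, are not in the labels and were left out. Genes were named from the array files through RefSeq accessions, symbols and synonyms of the Sscrofa11.1 assembly, whose coordinates were not used. Replicates were numbered by accession order and are separate pigs. The members and lists were chosen with earlier results of these data known. Named genes were the members, genes of 3 related lists past the threshold for temperature (PLIN1, PNPLA2, LIPE, PPARG and SREBF1 were added for their roles after their values were seen, as were the genes called between LW and Creole), and the 5 genes most like the members. The fit was tested on simulated data. The skeletal muscle score (HS minus TN 0.503, permutation test, adjusted p = 0.374) and the scores of keratinocyte (1.205, 0.306), macrophage (0.121, 0.354), endothelial (-0.061, 0.374), T cell (0.006, 0.953) and B cell (0.085, 0.354) markers did not pass, while nerve sheath (0.671, 0.00088), fibroblast and matrix (0.277, 0.0178), red blood cell (-0.320, 0.00759) and mammary or sebaceous gland (0.215, 0.0297) did.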

Additional observations from a re-analysis of the deposited data

Results flagged for a closer look

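Read on the brightest probe of each gene, GPD1 (O15018) was the only gene of the 9 with the following pattern. Every HS pig of 1 breed lay on 1 side of its own TN mean and every HS pig of another breed on the other side. In Creole pigs HS minus TN was 0.09 (SE 0.10), with 5 of 5 HS pigs above the TN mean, and in LW pigs it was -0.22 (SE 0.10), with 5 of 5 below it. The interaction of breed and temperature did not pass for GPD1 (limma, unadjusted p = 0.109, adjusted p = 0.897), so that a difference between the breeds was not shown. The pattern was absent on A_72_P667123, which has the same 60 bases as O15018. There Creole HS replicate 1, at 15.59, lay below its TN mean, and LW HS replicate 5, at 15.67, lay above its own. How many other probes show such a pattern was not counted. A test for single outlying arrays in 45 sets of 4 or 5 pigs, 9 genes in 5 groups, found 0, where chance gives about 1 in 20. The Creole TN group of 3 pigs was not tested.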

How the results depend on the processing

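The lower PLIN2 level in HS passed in 14 of 15 alternative settings and the lower GPAM level in 12 of 15, and both passed without each array in turn, with log2 differences of -0.95 to -0.78 and -0.44 to -0.33. Of the 9 genes, 2 passed for temperature in all 26 of those fits, 2 to 3 for LW minus Creole, and 2 to 4 for any breed difference, while 3973 to 6562 probes passed for temperature and 4823 to 8190 for LW minus Creole. The count was 0 to 1 within F1 pigs (1 without F1 TN replicate 3 or Creole HS replicate 5) and 0 to 1 within LW pigs. Leaving out arrays turned the sign of differences that never passed, for LW minus Creole in PLIN2 (-0.20 to 0.019) and within LW pigs in AGPAT2 (-0.19 to 0.05), BSCL2 (-0.13 to 0.058) and LPIN1 (-0.21 to 0.22).

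The settings below changed counts or signs, and the cause was not tested. For counts of the 9 genes within a breed or for any breed difference, the share of all probes was not counted per setting. This holds for the fits without an array as well. No such share is given either for LW minus Creole with the red blood cell score. Changes in these counts were therefore not set against all probes. With normexp background correction, with no filter on dim probes, or with slide as a fixed block, 0 of the 9 genes passed within LW pigs, where GPAM was at -0.49 (adjusted p = 0.0542), -0.64 (0.0573, the same difference adjusted over more probes) and -0.45 (0.174). The slide block also left 1 for any breed difference and put PLIN2 at 0.039 for LW minus Creole. With 75th percentile scaling LPIN1 was at -0.08 within LW pigs. With array weights 1 gene passed within F1 pigs. With the mean of all probes of a gene, 1 passed within F1 and 0 within LW pigs (GPAM still at -0.64, adjusted p = 0.0511), and BSCL2 was at 0.00 for temperature and 0.027 within LW pigs and LPIN1 at 0.086 for LW minus Creole. Without a breed term 3531 probes passed for temperature, and without a temperature term 4193 for LW minus Creole.

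Marker scores as covariates moved most. With the red blood cell score 528 probes and 1 of the 9 genes passed for temperature, 4 genes for LW minus Creole and 0 within LW pigs (GPAM -0.47, adjusted p = 0.438). There CIDEC was at 0.031, DGAT1 at 0.056, DGAT2 at 0.10 and GPD1 at 0.003 for temperature, and AGPAT2 at 0.15, DGAT1 at 0.019, DGAT2 at 0.093 and LPIN1 at -0.067 within LW pigs. With the skeletal muscle score 4100 probes passed for LW minus Creole, with 1 gene within F1 and 2 within LW pigs. PLIN2 was then at 0.072 for LW minus Creole, and BSCL2 at 0.024 and LPIN1 at -0.13 within LW pigs. Covariates chosen after seeing the data were the nerve sheath and the fibroblast and matrix scores. With the nerve sheath score 57 probes and 0 genes passed for temperature and 0 within LW pigs, although GPAM was further from 0 there, at -0.98 (adjusted p = 0.0901), with BSCL2 at 0.032 and DGAT2 at 0.037 for temperature, and BSCL2 at 0.155, DGAT2 at 0.006 and LPIN1 at -0.043 within LW pigs. With the fibroblast and matrix score 1500 probes and 1 gene passed for temperature, 679 probes and 0 genes for LW minus Creole, 0 genes for any breed difference and 0 within LW pigs (GPAM -0.53, adjusted p = 0.134). DGAT1 was then at 0.013, DGAT2 at 0.074 and GPD1 at 0.021 for temperature, DGAT2 at 0.063 for LW minus Creole, and AGPAT2 at 0.055 and DGAT2 at 0.005 within LW pigs.

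No paired analysis was possible because the labels carry no replicate numbers that link pigs across groups. Dim signal limits AGPAT2 probe O8998, which was above background on 8 arrays. The GPAM results rest on a single probe of low mean level, 6.85.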
